A study of Homo sapiens with 6 samples.

Results

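The genes described here are those of the mitogen-activated protein (MAP) kinase cascades and their inhibitors, measured in Hep3B, a long-established human liver cancer cell line, in cells that carry a decoy RNA against the miR-17 family or a control decoy. The members are all array probe sets whose platform gene symbol begins with MAPK, MAP2K, MAP3K, MAP4K, MAPKAPK, DUSP, SPRY or SPRED followed by a digit, 198 of the 54675 probe sets on the array. They stand for 87 of the 19775 genes that have a probe set with a single symbol. Of the 87 genes 75 encode proteins and 12 are antisense, divergent or other noncoding transcripts or a pseudogene that carry the family's name. A further 5 probe sets met the rule but carry more than 1 symbol, and were not named or counted.

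Gene expression was measured on 6 Affymetrix HG-U133 Plus 2 arrays, 3 from cells labelled miR-17 TuD and 3 from cells labelled NC TuD. A TuD (tough decoy) is an RNA that exposes binding sites for a microRNA and so holds it away from its target mRNAs. Per the labels, both groups are stable lines, made by exposing the cells to lentivirus for 48 hours (multiplicity of infection 5), selecting with puromycin and pooling the resistant colonies after 2 weeks. Each group therefore rests on the line made for it, and nothing in the labels marks its 3 samples as cultures grown apart. The p-values then measure only how far these samples spread, and that spread may be technical. A second code in the labels holds 72HR for all samples, PLUSDOX for every miR-17 TuD sample and NODOX for every NC TuD sample. What the code means was not stated in the labels, and it cannot be told apart from the decoy.

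MAP kinase cascades pass signals from growth factor receptors and stress through a chain of kinases. A MAP3K phosphorylates a MAP2K, which phosphorylates a MAP kinase of the ERK, p38 or JNK type, and the MAP kinase then acts on transcription factors and on further kinases such as the MAPKAPKs. Dual-specificity phosphatases (DUSP), Sprouty (SPRY) and SPRED proteins inhibit the cascades, and several of their genes are themselves induced by ERK. A microRNA of the miR-17 family lowers mRNAs that pair with its seed, bases 2 to 8, and MAP3K2, MAP3K8, MAP3K12 and MAPK9 have been reported as targets of the family.

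The microRNAs of the miR-17 family are shown first, since the decoy is named after miR-17. The array does not measure mature microRNAs, so the effect of the decoy on them was not read here. The 6 mature microRNAs of the family, taken from RefSeq (GRCh38.p14), are printed 5′ to 3′ with the seed in capitals.
hsa-miR-17-5p: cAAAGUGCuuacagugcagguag
hsa-miR-20a-5p: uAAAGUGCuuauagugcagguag
hsa-miR-20b-5p: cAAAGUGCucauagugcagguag
hsa-miR-93-5p: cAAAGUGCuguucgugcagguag
hsa-miR-106a-5p: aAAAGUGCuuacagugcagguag
hsa-miR-106b-5p: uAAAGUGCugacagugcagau
All 6 share 1 seed, AAAGUGC, and would pair with GCACUUU in a target RNA. They lie in the genes MIR17 (chr13:91350618-91350640, plus strand), MIR20A (chr13:91351072-91351094, plus strand), MIR20B (chrX:134169850-134169872, minus strand), MIR93 (chr7:100093815-100093837, minus strand), MIR106A (chrX:134170244-134170266, minus strand) and MIR106B (chr7:100094043-100094063, minus strand).

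All values below are the authors' log2 expression values, and a difference is the miR-17 TuD mean minus the NC TuD mean. Values at or near 2.12, the lowest on the arrays, mean that a probe set read nothing above background. Across probe sets, r was 0.9989 to 0.9993 within groups and 0.9977 to 0.9984 between them, and there were 0 identical pairs of arrays. Of 10 hepatocyte marker genes 8 were measured, with NC TuD means from 9.08 to 16.2, and 7 of them were lower in the miR-17 TuD arrays at an adjusted p under 0.05 (median difference of the 8, -0.62). Of the leukocyte markers 2 of 6 and of the endothelial markers 2 of 5 were measured, with means from 2.17 to 3.85, with no call. Of the fibroblast or stellate cell markers 4 of 5 were measured, with NC TuD means from 3.86 to 12.45 and a median difference of 0.29, opposite in sign to that of the hepatocyte markers. COL1A1 (0.34), COL1A2 (0.44) and LUM (0.24) lay higher in the miR-17 TuD arrays, the latter pair without overlap, and PDGFRB lower (-0.08), with no call among them in limma (adjusted p from 0.151 to 0.492). The part of these marker differences in the results below was not tested.

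Few genes of the MAP kinase families shifted, and by little. Of the 198 member probe sets 45 had a mean over the 6 arrays under the limit for testing, 40 of them at the lowest value on all arrays, and 153 probe sets of 74 genes were tested. Among the 153, 7 were higher in the miR-17 TuD arrays and 3 were lower at a Benjamini-Hochberg adjusted p under 0.05 in limma, each for a different gene. The 10 calls are 6.54% of the members tested, near the 5.83% called among all 32768 probe sets, and higher calls made up 3.35% and lower calls 2.48% of all probe sets. With each array centred on its median the split was 15 higher and 2 lower, and over all 32768 probe sets it was 1853 higher and 1077 lower. The groups did not overlap for 32% of the members tested, 32 of them higher and 17 lower, against 27.3% of all probe sets, 13.7% higher and 13.6% lower. The median absolute difference was 0.066 among the members and 0.073 among all probe sets tested. In 132 of the 153 members the difference was smaller than 0.25, and only 1 reached 1.5-fold. All 10 calls were among the 104 members with a mean above 7 and none among the 49 at or below it. The calls over all probe sets were not split at that level.

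**Figure D1:**
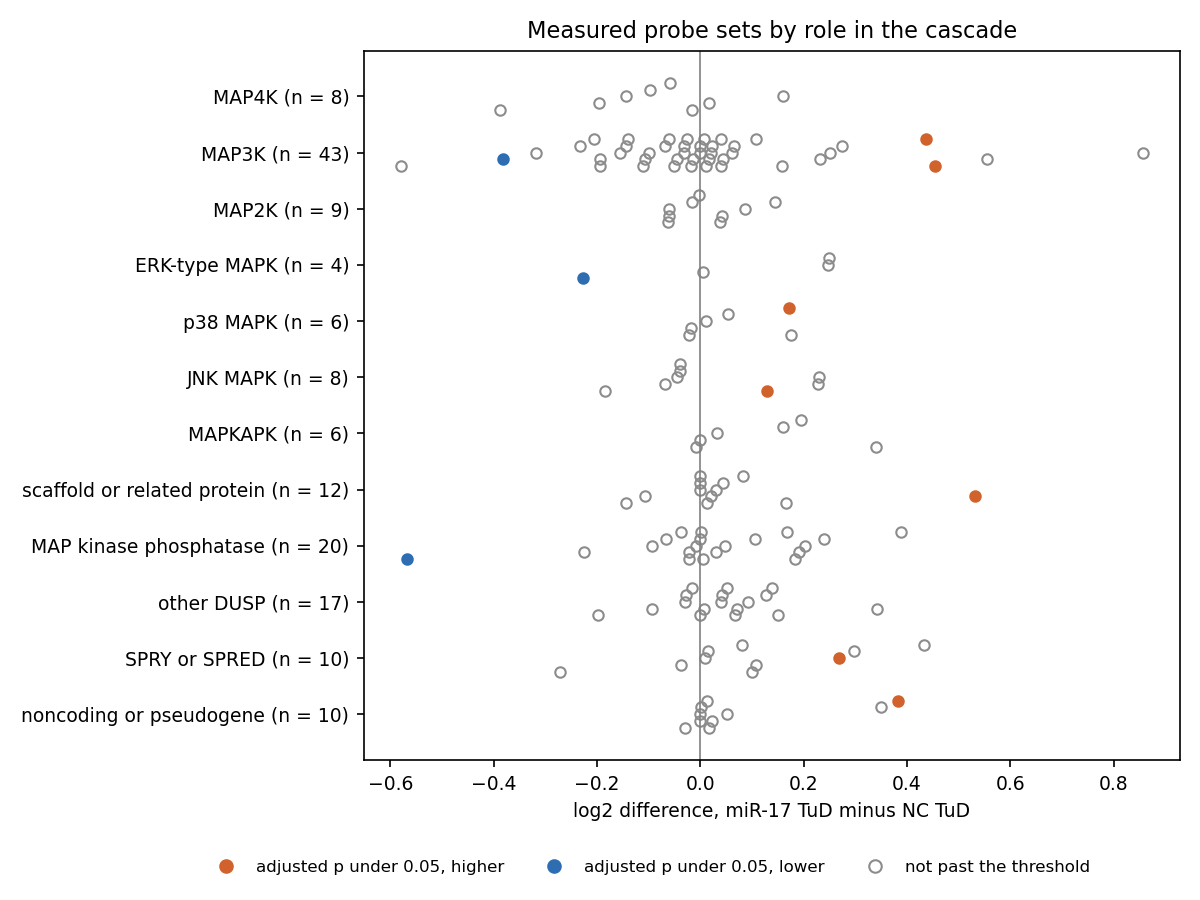
Each point is a measured probe set, placed by its log2 difference (miR-17 TuD minus NC TuD, x axis) and grouped by its gene's role, with the number of probe sets in parentheses. Vertical spread within a row only separates points. The 7 orange and 3 blue points are those past the threshold, and most open points lie within 0.25 of zero.

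MAP3K7CL, which encodes a protein related to the C-terminal part of the kinase MAP3K7 but is not itself a kinase, had the largest difference among the 7 probe sets that rose. It stood at 8.07, 8.11 and 8.19 in the miR-17 TuD arrays and at 7.59, 7.68 and 7.49 in the NC TuD arrays. The groups were well apart, and the gene was 1.45-fold higher (log2 difference 0.53, SE 0.06, adjusted p = 0.0223 in limma). DUSP9, a phosphatase also named MKP-4 that inactivates ERK and other MAP kinases, had the largest difference among the 3 that fell. Its 3 miR-17 TuD values were 7.51, 7.40 and 7.41, all below the NC TuD values of 7.98, 7.94 and 8.11. It was 1.48-fold lower (-0.57, SE 0.057, adjusted p = 0.0184), and it was the member with the smallest adjusted p.

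At the top of the cascade, the MAP3K genes moved in both directions. MAP3K9, the mixed-lineage kinase MLK1 that acts on the JNK branch, stood at 8.90, 8.78 and 8.97 against 8.33, 8.47 and 8.49. It rose 1.37-fold (0.45, SE 0.071, adjusted p = 0.0403 in limma). Its other probe set, with low values of 3.72, 4.16 and 4.47 against 3.13, 3.43 and 3.22, had the largest difference of any member, 0.86, without passing the test (adjusted p = 0.107). MAP3K1, or MEKK1, an activator of the JNK and ERK branches, stood at 10.28, 10.23 and 10.08 against 10.62, 10.60 and 10.52. It was 1.30-fold lower (-0.38, SE 0.062, adjusted p = 0.0439), while its second probe set differed by -0.05 (adjusted p = 0.626). In all, 2 of 43 measured MAP3K probe sets rose and 1 fell, over 17 genes with a measured probe set, and differences ran from -0.58 to 0.86 with a median of -0.014.

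MAP3K2, or MEKK2, which feeds the ERK5 and JNK branches, was the only 1 of the 4 reported miR-17 family targets with a probe set past the threshold. That probe set stood at 10.77, 10.90 and 10.69 in the miR-17 TuD arrays and at 10.33, 10.44 and 10.28 in the NC TuD arrays, a 1.35-fold rise (0.44, SE 0.071, adjusted p = 0.0426 in limma). Of the 7 probe sets of the gene, all tested, 6 had a difference above 0 and 1 had none. A second stood at 7.70, 7.66 and 7.23 against 6.98, 6.83 and 7.12, again without overlap but with a wider spread (0.56, SE 0.16, adjusted p = 0.137), and another, also without overlap, differed by 0.27 (adjusted p = 0.274). The other 4 differed by 0 to 0.11, among them a well measured set at 7.72 ± 0.047 against 7.66 ± 0.12 (SD, n = 3, adjusted p = 0.585). The probe sets of MAP3K2 therefore did not give 1 size of change, and they share a gene and are not replicates of each other.

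MAP3K2-DT, a noncoding transcript that overlaps MAP3K2 in RefSeq, rose with it. Its probe set stood at 9.82, 9.75 and 9.82 against 9.37, 9.34 and 9.53, 1.30-fold higher (0.38, SE 0.059, adjusted p = 0.0398 in limma). Its suffix, s_at, marks a probe set that can bind more than 1 transcript, and whether its signal is separate from that of MAP3K2 was not tested.

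No probe set of the other reported targets passed the test, and every probe set of MAP3K8 and MAPK9 had a difference below 0. MAP3K8, or TPL2, a kinase that activates MEK in inflammatory signalling, stood at 6.73, 6.91 and 7.20 in the miR-17 TuD arrays and at 7.73, 7.35 and 7.51 in the NC TuD arrays. All 3 miR-17 TuD values lay below the NC TuD values, and the difference of -0.58 (SE 0.16, adjusted p = 0.129 in limma) did not pass the test. Its second probe set was near the bottom of the scale, at 3.18 ± 0.12 against 3.25 (SD, n = 3, adjusted p = 0.566). MAPK9, which encodes the kinase JNK2, was well measured, and its brightest probe set stood at 11.40, 11.43 and 11.40 against 11.44, 11.48 and 11.52. The groups were narrowly apart at a difference of -0.07 (adjusted p = 0.189), with a 95% confidence interval of -0.13 to -0.007 before adjustment for the number of tests. Its other probe sets differed by -0.04 and -0.19 (adjusted p = 0.611 and 0.217), so none of its 3 differences was above 0. MAP3K12, the dual leucine zipper kinase DLK of the JNK branch, was weakly measured. Its brightest probe set stood at 5.65 ± 0.019 against 5.71 ± 0.11 (SD, n = 3, adjusted p = 0.57), with an interval of -0.22 to 0.10, and the others averaged 3.09 and 2.53 with the miR-17 decoy, little above the floor of the scale.

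**Figure D2:**
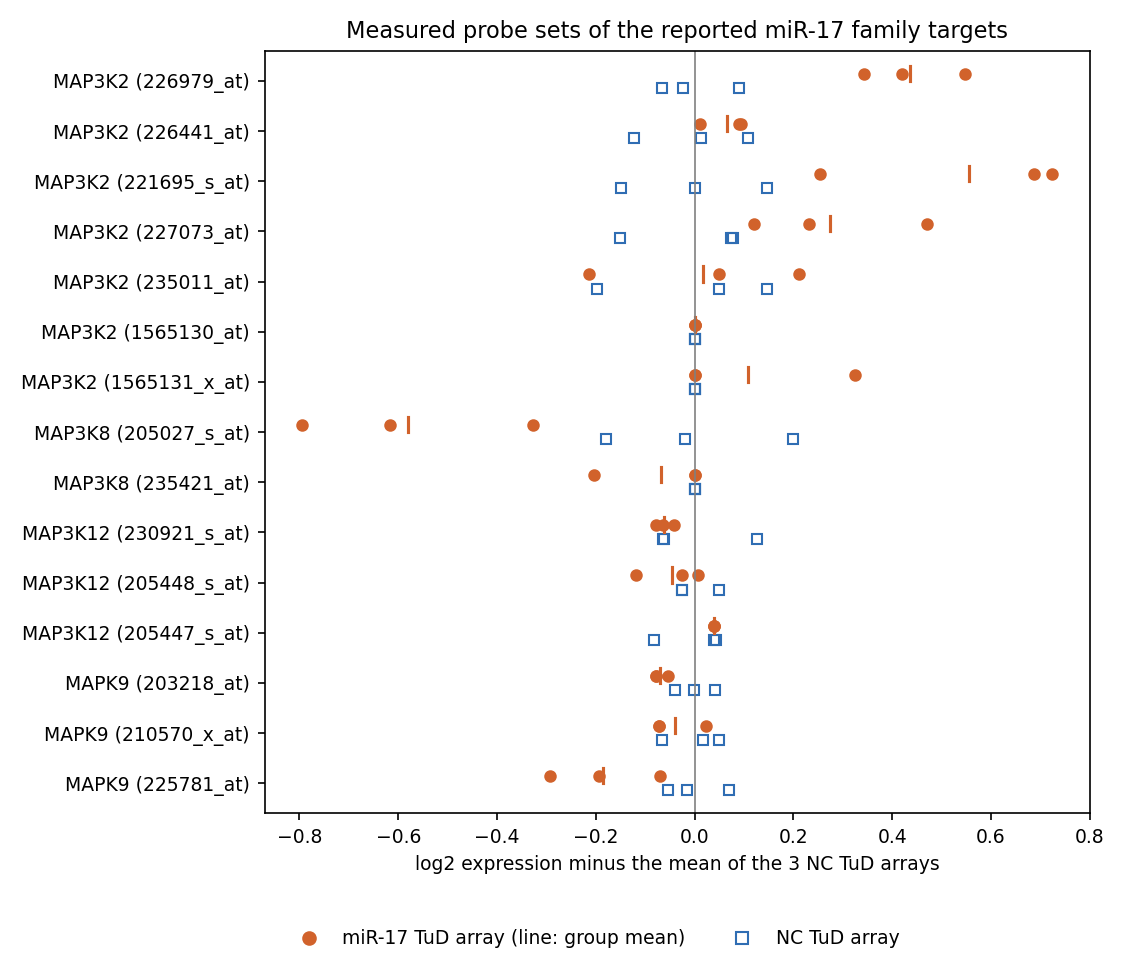
Log2 expression on each array minus the mean of the 3 NC TuD arrays (x axis) for the 15 measured probe sets of MAP3K2, MAP3K8, MAP3K12 and MAPK9. Filled circles are miR-17 TuD arrays with a short line at their mean, open squares NC TuD arrays. Circles lie to the right of the squares without overlap in 3 MAP3K2 sets and to the left in 1 MAP3K8 and 2 MAPK9 sets.

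Among the remaining MAP3K genes, those of the fixed panel differed little. MAP3K7, or TAK1, the kinase downstream of TGF-beta and interleukin-1 receptors, had 4 measured probe sets with differences from -0.11 to -0.02. Its brightest stood at 10.47 ± 0.13 against 10.57 ± 0.04 (SD of 3 arrays, adjusted p = 0.51 in limma). MAP3K5, or ASK1, a kinase of the oxidative stress response, was close to constant at 4.08 against 4.07. Genes named after their values were seen include MAP3K20, or ZAK, a kinase that senses stalled ribosomes, of whose 7 probe sets 6 had a difference below 0, 3 of them without overlap (-0.14, -0.16 and -0.32, adjusted p = 0.412, 0.0782 and 0.164). MAP3K14, or NIK, the kinase of noncanonical NF-kB signalling, stood at 7.12 ± 0.014 against 6.96 ± 0.05 (0.16, adjusted p = 0.0514), and MAP3K11, or MLK3, at 9.99 ± 0.077 against 9.75 ± 0.07 (0.23, adjusted p = 0.0956). None of these passed the test. Upstream of the MAP3Ks, MAP4K4, a kinase linked to JNK signalling, had 5 probe sets with differences from -0.39 to -0.06, 3 of them without overlap, and the brightest stood at 13.39 ± 0.061 against 13.59 ± 0.042 (-0.20, adjusted p = 0.0671), also named after its values were seen. No MAP4K probe set of 8 measured passed in limma, with 3 at an unadjusted p under 0.05. That level was common, reached by 7239 of all 32768 probe sets and by 40 of the 153 members in limma. Such counts here and below are to be read against those shares. MAP4K1, a kinase of blood cells, had no measured probe set.

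The MAP2K genes, the middle tier, had no call among 9 measured probe sets of 5 genes, with differences from -0.06 to 0.15 and 2 at an unadjusted p under 0.05 in limma. MAP2K1, which encodes MEK1, stood at 13.31, 13.23 and 13.36 against 13.28, 13.25 and 13.26 (adjusted p = 0.566 in limma). The groups overlapped, and the 95% confidence interval of the difference ran from -0.06 to 0.13. MAP2K2, or MEK2, stood at 12.64, 12.68 and 12.71 against 12.60, 12.57 and 12.61, apart but by only 0.09 (adjusted p = 0.116), and MAP2K4, the JNK and p38 activator MKK4, at 10.83 ± 0.024 against 10.89 ± 0.077 (adjusted p = 0.49).

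The MAP kinases themselves gave 3 calls, of 1.09-fold to 1.17-fold. They were a p38 kinase, a JNK kinase and the atypical MAPK6, which was grouped here with the ERK-type kinases by name. MAPK13, the p38 delta kinase found mainly in epithelial tissues, stood at 11.82, 11.81 and 11.87 against 11.67, 11.63 and 11.69, a rise of 1.13-fold (0.17, SE 0.024, adjusted p = 0.0332 in limma). Its second probe set gave the same size, 11.17, 11.23 and 11.28 against 11.03, 11.03 and 11.10 (0.17, adjusted p = 0.0758), without passing. MAPK8, which encodes JNK1, stood at 10.05, 10.10 and 10.11 against 9.94, 9.95 and 9.98, a rise of 1.09-fold (0.13, SE 0.022, adjusted p = 0.0471). A second MAPK8 probe set differed by 0.23 without overlap (adjusted p = 0.0907), and the 3 others, with means of 6.81 or less, differed by -0.045, -0.040 and 0.23 with overlapping groups. MAPK6, or ERK3, an atypical kinase without the usual activation motif, fell 1.17-fold, from 12.66, 12.69 and 12.64 to 12.47, 12.48 and 12.36 (-0.23, SE 0.038, adjusted p = 0.047). JNK1 and JNK2 had differences of opposite sign in their brightest probe sets, and a difference between the 2 genes was not tested.

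MAPK3, which encodes ERK1, was measured by 1 probe set of suffix x_at that read 9.58 on 5 arrays and 9.57 on the other. MAPK7, or ERK5, the kinase that MAP3K2 and MAP3K3 control through MAP2K5, had differences of 0.25 in both probe sets (adjusted p = 0.157 and 0.276), named after its values were seen. MAPK10, the JNK of neurons, MAPK4 and MAPK15 had no measured probe set. Of the MAPKAPK genes, kinases that p38 activates, none passed in 6 probe sets, with 3 at an unadjusted p under 0.05. The brightest MAPKAPK2 set stood at 10.12 ± 0.053 against 10.12 ± 0.067 (SD of 3 arrays, limma adjusted p = 1), while MAPKAPK3, named after its values were seen, stood at 10.05 ± 0.048 against 9.86 ± 0.041 (0.19, adjusted p = 0.0501), just short of the threshold. Scaffold proteins of the JNK branch, MAPK8IP1, MAPK8IP2 and MAPK8IP3, read from 2.15 to 5.94 in their measured sets, with differences from -0.11 to 0.04, and were named after their values were seen.

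**Figure D3:**
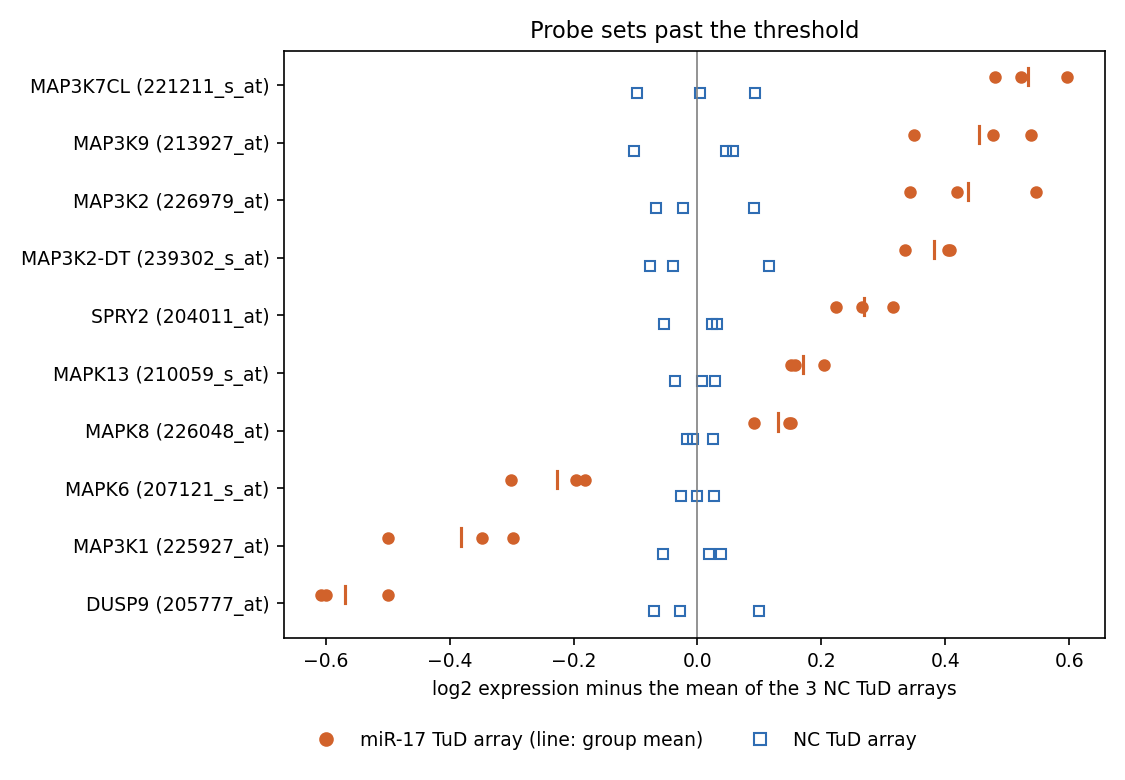
Log2 expression on each array minus the mean of the 3 NC TuD arrays (x axis) for the 10 probe sets past the threshold, ordered by difference. Filled circles are miR-17 TuD arrays with a short line at their mean, open squares NC TuD arrays. The circles and squares of each probe set do not overlap, and the means run from -0.57 for DUSP9 to 0.53 for MAP3K7CL.

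Inhibitors of the cascades moved unevenly. SPRY2, a Sprouty protein that restrains receptor signalling to ERK and is induced by it, stood at 11.45, 11.40 and 11.49 against 11.12, 11.21 and 11.20. It rose 1.20-fold (0.27, SE 0.036, adjusted p = 0.0299 in limma) and was the only call among 10 measured SPRY and SPRED probe sets. SPRY4 stood at 7.84, 8.14 and 8.39 against 7.63, 7.80 and 7.63, apart but with a wide spread among the miR-17 TuD arrays (0.43, SE 0.16, adjusted p = 0.209). The SPRY1 sets differed by 0.11 and 0.30 without passing, named after their values were seen. SPRED1 and SPRED2, which restrain signalling from RAS to RAF, stood at 9.83 ± 0.0092 against 9.87 ± 0.066 and at 10.36 ± 0.025 against 10.26 ± 0.10 (SD, n = 3, adjusted p = 0.572 and 0.398).

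Of the 10 genes of MAP kinase phosphatases, the DUSP proteins that act on MAP kinases themselves, DUSP9 fell and no other of the 20 measured probe sets passed. DUSP5, a nuclear phosphatase of ERK, stood at 8.82, 8.65 and 8.93 against 8.37, 8.52 and 8.34, the groups apart (0.39, SE 0.09, adjusted p = 0.085 in limma). DUSP6, the cytoplasmic phosphatase of ERK and a feedback gene of that branch, stood at 11.58, 11.61 and 11.75 against 11.35, 11.54 and 11.55, and its 3 probe sets differed by 0.11 to 0.19, none past the test (adjusted p from 0.118 to 0.308). DUSP1, an immediate early phosphatase of p38, JNK and ERK, stood at 13.91, 14.09 and 14.02 against 13.77, 13.84 and 13.86 (0.18, adjusted p = 0.139), and its second measured set at 11.04 ± 0.065 against 10.80 ± 0.055 (0.24, adjusted p = 0.0601), while another read 2.24 on all 6 arrays. DUSP4, another ERK-induced phosphatase, had 3 probe sets with differences from -0.09 to -0.02, and DUSP10, a phosphatase of JNK and p38, differed by 0.03 (adjusted p = 0.619). SPRY1, SPRY2, SPRY4, DUSP1, DUSP4, DUSP5 and DUSP6 were taken here as inhibitors induced by ERK, and SPRY2 alone passed the test. Every set of SPRY1, SPRY4, DUSP5 and DUSP6 had a difference above 0, without passing. So did the DUSP1 sets other than the one that read 2.24 throughout, while every DUSP4 set had a difference below 0, also without passing. The atypical and other DUSP genes had no call in 17 probe sets of 11 measured genes, with differences from -0.20 to 0.34 and 2 at an unadjusted p under 0.05.

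**Figure D4:**
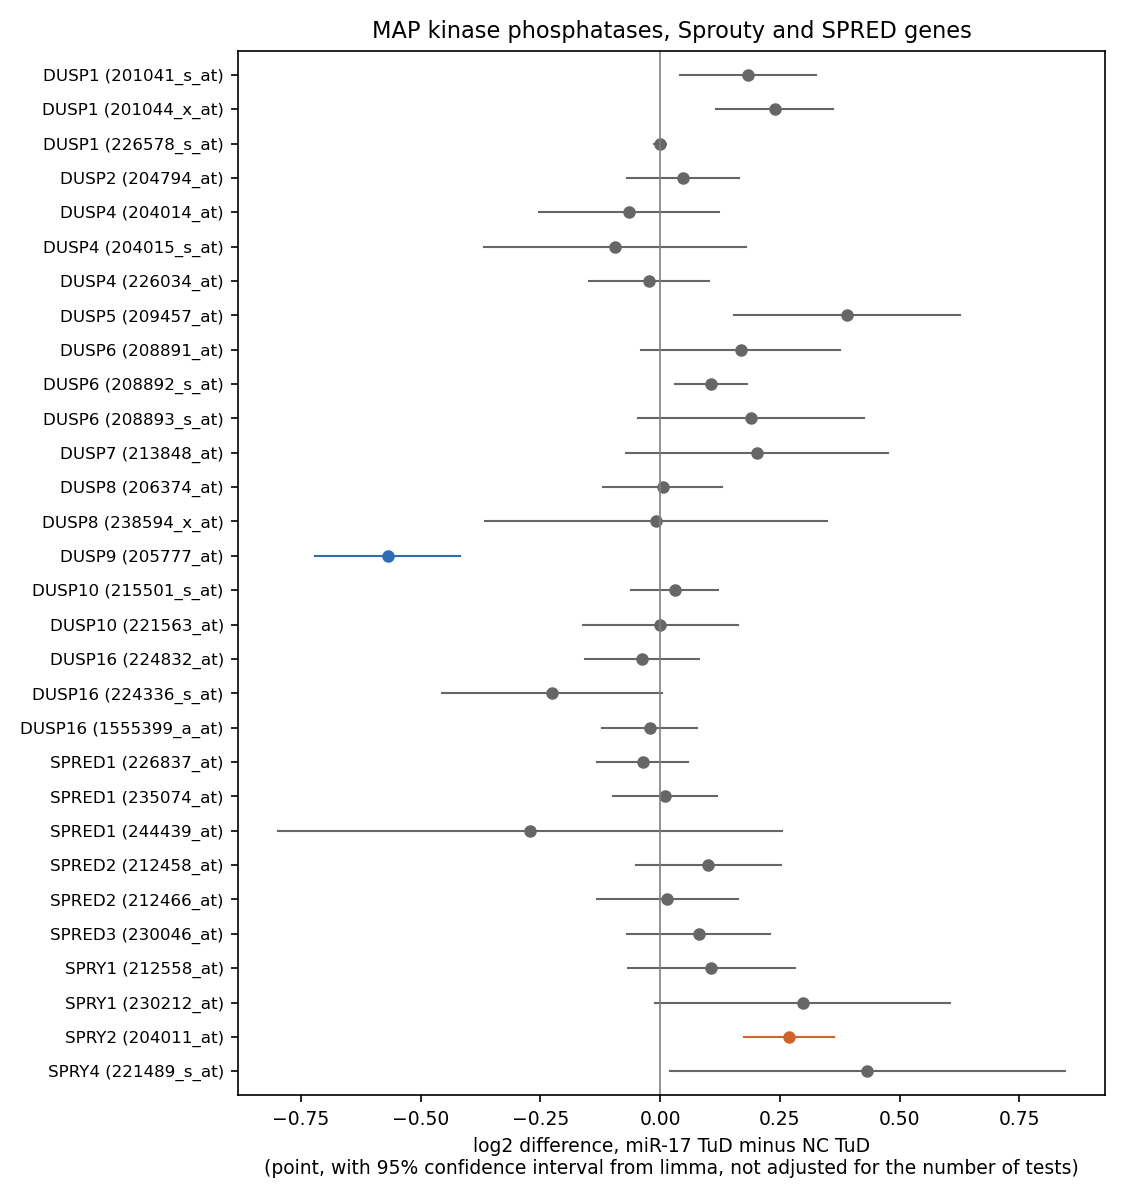
Log2 difference (miR-17 TuD minus NC TuD, x axis) for the measured probe sets of MAP kinase phosphatases, Sprouty and SPRED genes. Points are differences and bars 95% confidence intervals from limma, not adjusted for the number of tests. DUSP9 (blue, -0.57) and SPRY2 (orange, 0.27) are the sets past the threshold.

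Genes of the pathways that carry other names were taken from lists chosen with earlier results of these data known. Each gene was read from its probe set of highest mean. Over all 13949 genes read this way, 4.82% were higher and 3.14% lower, and the median difference was 0.00056. Of 15 measured transcripts that ERK signalling is known to induce, 5 rose and none fell past the threshold, with a median difference of 0.27. ETV5 (-0.31, adjusted p = 0.205 in limma) and ETV4 (-0.04, adjusted p = 0.399) alone had differences below 0, with overlapping groups. They were named after their values were seen. EGR1, a zinc finger transcription factor, stood at 11.08, 11.36 and 11.21 against 10.04, 10.29 and 10.19 and rose 2.06-fold (1.04, SE 0.10, adjusted p = 0.0177 in limma). EREG, the EGF receptor ligand epiregulin, rose 1.62-fold, from 10.74, 10.81 and 10.78 to 11.60, 11.54 and 11.27 (adjusted p = 0.0319). HBEGF, another ligand of that receptor, rose 1.61-fold, from 7.44, 7.76 and 7.78 to 8.33, 8.26 and 8.46 (adjusted p = 0.0456). IER2 rose 1.16-fold, as did IER3 at 1.10-fold, the latter named after its value was seen. Leaving out NC TuD replicate 1, 2 or 3 took the count for these transcripts to 0. It was 2 without miR-17 TuD replicate 2 and 3 without miR-17 TuD replicate 3, and 8 with each array centred on its median.

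Receptors and adaptors had 3 falls and no rise among 17 measured genes, with a median of -0.12. INSR, the insulin receptor, fell 1.27-fold (11.17 ± 0.066 against 11.51 ± 0.055, SD of 3 arrays, limma adjusted p = 0.0316), and the fibroblast growth factor receptors FGFR2 and FGFR4 fell by 0.23 and 0.15. With median centring 2 of the 17 were higher, and the count of falls was 0 without miR-17 TuD replicates 1 or 2 or any 1 of the NC TuD arrays. Of 12 measured RAS and RAF genes 2 rose, the small GTPases MRAS (0.23) and RRAS2 (0.18), and none fell. Among 18 genes of stress inputs MINK1, a kinase related to MAP4K4, rose 1.48-fold (0.56, adjusted p = 0.0151), and TAB3, a partner of the kinase MAP3K7, fell 1.44-fold (-0.53, adjusted p = 0.0153).

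Of 20 measured substrates of MAP kinases 3 rose and 1 fell, with a median of 0.022. RPS6KA4, the kinase MSK2, rose 1.49-fold (0.57, adjusted p = 0.04 in limma), MKNK2, a kinase of the translation factor eIF4E, rose 1.36-fold, from 13.38, 13.34 and 13.37 to 13.76, 13.85 and 13.83 (adjusted p = 0.0104), and the ERK-activated transcription factor ELK1 rose 1.19-fold. CREB1, a transcription factor phosphorylated by several of these kinases, fell by 0.18. Of 12 other phosphatases and inhibitors, STYXL1, a pseudophosphatase, was the single gene past the test (0.28, adjusted p = 0.0239). Without any 1 of the NC TuD arrays the counts of rises in the RAS and RAF, stress input, substrate and phosphatase lists were all 0, and without miR-17 TuD replicate 2 they were 0 in all of these but the substrates, which had 3. Without miR-17 TuD replicate 1 there was 1 rise each in the RAS and RAF and the substrate lists, and without replicate 3 there was 1 in RAS and RAF and 3 in the phosphatase list. The CREB1 fall no longer passed when NC TuD replicate 1, 2 or 3 or miR-17 TuD replicate 2 was left out, nor did the TAB3 fall without NC TuD replicate 1 or 2.

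**Figure D5:**
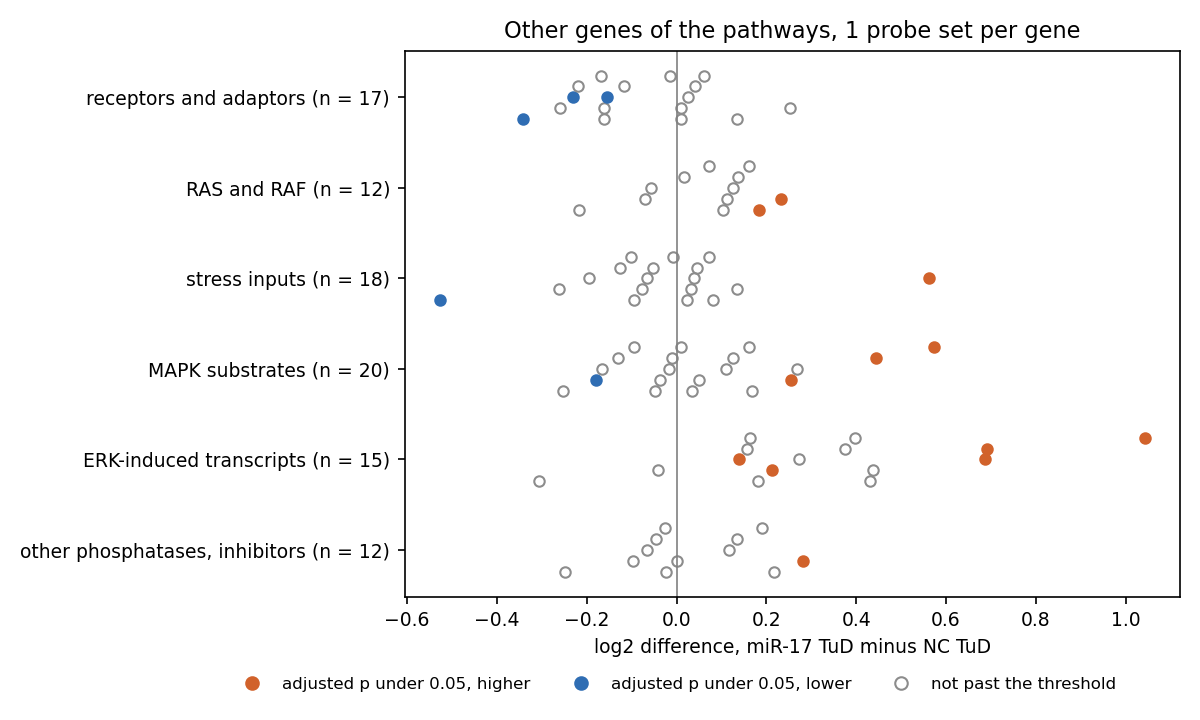
Log2 difference (miR-17 TuD minus NC TuD, x axis) for genes of the pathways that carry other names, 1 probe set per gene, with the number of measured genes in parentheses. Vertical spread within a row only separates points. Filled points are past the threshold, and EGR1 at 1.04 is the point farthest to the right.

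The calls of single members rested on all 6 arrays. Each of the 10 ended in 5 or 6 of the 6 fits that left out 1 array, with adjusted p up to 0.165, while the direction stayed in all 60 of these values. DUSP9 ran from -0.60 to -0.52, MAP3K7CL from 0.48 to 0.58 and MAP3K2 from 0.38 to 0.48 over those fits.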

How the data were processed

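Total RNA of 6 samples was hybridised to 6 arrays. The authors' deposited values are log2 expression values per probe set, from 2.12 to 16.3, and RMA and GCRMA are listed, with no role or version, per the submitters' processing notes. No genome build was named. From 36.7% to 37.1% of probe sets per array lay within 0.001 of the lowest value, a floor that hides changes of weak genes, and the files hold no detection calls. Values were used as deposited. Groups and replicates come from the sample titles.

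Symbols come from GEO's platform annotation, and all 198 member probe sets matched RefSeq by Entrez identifier. Of 54675 probe sets, 62 controls were left out, as were those with a mean over the 6 arrays at or under the 40th percentile (2.14), leaving 32768. The test was limma's moderated comparison (lmFit, eBayes, version 3.58.1, R 4.3.3, 2-sided) with Benjamini-Hochberg adjustment over all 32768 and a threshold of 0.05. The prior degrees of freedom were 0.632. In 26 measured members the 3 arrays of a group agreed within 0.001. The number of arrays limits the precision.

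Named are all members past the threshold, every measured probe set of their genes and of the 4 reported targets, a fixed panel at its brightest probe set, the 5 largest differences short of the threshold and up to 4 genes past it in each list. Others are marked where they appear. Members and lists were chosen with earlier results of these data known. Panel genes with no probe set of 1 symbol were not analysed here. The alternatives were 2 filters, 2 scalings, a robust variance model, 1 probe set per gene, the replicate block and leaving out each array.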

Additional observations from a re-analysis of the deposited data

How the results depend on the processing

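In place of 7 members that rose and 3 that fell, the counts were 0 and 1 with no filter on low values, where 54613 probe sets were tested and 554 called. They were 14 and 4 with the filter at the 60th percentile, where 21845 probe sets were tested and 3271 called. Quantile normalization gave 11 and 5, median centring 15 and 2, robust eBayes 5 and 1, and 1 probe set per gene 9 and 5 of 74 genes. Over the whole table these settings gave 1344 and 1105, 1853 and 1077, 878 and 634, and 946 and 642 of 13949 genes. Leaving out 1 array gave 0 to 1 higher and 0 to 2 lower. Calls over all probe sets fell from 1910 to 145, 191 and 234 without NC TuD replicates 1, 2 and 3. Without miR-17 TuD replicates 1, 2 and 3 they were 1087, 680 and 1155, and 2, 0 and 2 members were called in those fits. With the replicate block the counts were 0 and 0, and no probe set of the whole table passed in limma (0 against 1910), with 7488 of all probe sets and 33 members at an unadjusted p under 0.05. Deviations from the group means of samples with the same replicate number correlated at 0.04, 0.10 and 0.11. Those of samples with different numbers correlated at -0.098 to -0.009, so each correlated best with its own number. The labels give only the number, and whether it marks samples handled together was not tested. Under the alternatives DUSP5 passed with the stricter filter, quantile normalization or median centring (adjusted p from 0.0297 to 0.0465 in limma), and the weaker MAP3K9 probe set with median centring (0.0403). The MAP3K2, MAP3K1, MAPK8 and MAPK6 calls also ended with robust eBayes (adjusted p from 0.0528 to 0.0571), and the MAPK6 call with median centring (0.0628). No call of a named member reversed under any alternative listed here. Calls in the ERK-induced list were 1 with no filter, 8 with the stricter filter and 0 with the replicate block, which left 0 calls in the other lists too. Of 571 values of named members under the alternatives, 79 lost a call and 8 gained one. The cause of these changes was not tested, except that the fits without an array hold fewer samples and the fit with no filter adjusts over more probe sets. Changes of genes near the lowest value could not be read.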
